A study of Mus musculus with 12 samples.

Results

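Status epilepticus, a prolonged seizure, was compared with vehicle in mice that lack the P2X7 receptor, across the miRNAs of the hippocampus. The members were the 6 P2rx7-/- samples of the 12 in the series, 3 taken after status epilepticus (post-SE) and 3 after vehicle (control). They were described over 414 of 619 miRNA assays, those with a threshold cycle (Ct) in all 6 samples. A Ct is the PCR cycle at which an assay crosses its detection threshold, so a low Ct is an abundant miRNA and 1 cycle is 1 log2 unit. The P2rx7-/- line is a constitutive knockout on a C57BL/6 background that lacks exon 2 of P2rx7, so every cell type carried the deletion. Post-SE mice received 0.3 ug of kainic acid, a glutamate receptor agonist, in 0.2 ul into the right basolateral amygdala, and control mice received the same volume of phosphate-buffered saline. All mice then received lorazepam, a benzodiazepine that stops seizures, at 6 mg/kg after 40 min. The hippocampus on the injected side was taken at 8 h, from mice that the labels give as 8 weeks old, and 1 ug of total RNA was used per sample. Each sample pooled 2 hippocampi from different mice, so the spread between single mice was not seen. The wt samples, 3 post-SE and 3 control treated in the same way, are used here only to set the knockout response beside that of mice with the receptor. The assays do not measure the P2rx7 transcript.

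P2X7 is a cation channel opened by extracellular ATP, best known on microglia, where its opening leads to the release of interleukin-1β. Injured and overactive tissue releases ATP, and the receptor has been studied as a driver of inflammation after seizures. miRNAs are short RNAs that bind transcripts through bases 2 to 8 of their own sequence, the seed, and lower the protein made from them. A miRNA hairpin yields a guide strand, usually the more abundant strand, and a passenger strand from the opposite arm, which is written with an asterisk here.

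The mature sequences of miRNAs named in this comparison are given from the RefSeq table for mouse build GRCm38.p6, with the seed in capitals. Many were picked because their groups did not overlap, which held for 27 of the 414 assays (6.52%). No assay differed after adjustment for multiple testing. The first set was higher in every post-SE sample than in every control sample, passenger strands first.
miR-21*: cAACAGCAgucgaugggcuguc
miR-27a*: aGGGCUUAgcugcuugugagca
miR-27b*: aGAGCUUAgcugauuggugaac
miR-335*: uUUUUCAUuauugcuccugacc
miR-210: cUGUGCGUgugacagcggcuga
miR-188-5p: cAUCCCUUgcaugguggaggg
miR-770-3p: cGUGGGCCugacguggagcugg
miR-676: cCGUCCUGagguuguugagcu

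These seeds all differed from each other. miR-21* lies at chr11:86584082-86584103 on the minus strand, miR-27a* at chr8:84208685-84208706 on the plus strand and miR-335* at chr6:30741354-30741375 on the plus strand, within an intron of Mest. miR-210 lies at chr7:141221407-141221428 on the minus strand, and miR-770-3p at chr12:109563744-109563765 on the plus strand, in the imprinted Dlk1-Dio3 region, whose miRNAs are made from the maternal chromosome. miR-685 and miR-1949, which were also higher in every post-SE sample, are given by name.

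The second set was lower in every post-SE sample, except for miR-130b and miR-301, which are shown because they share the seed of miR-721.
miR-721: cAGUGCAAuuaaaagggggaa
miR-130b: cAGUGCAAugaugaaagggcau
miR-301: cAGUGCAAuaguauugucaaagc
miR-490: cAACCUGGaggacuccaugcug
miR-337-3p: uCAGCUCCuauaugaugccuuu
miR-704: aGACAUGUgcucugcuccuag

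miR-721 lies at chr5:136375777-136375797 on the minus strand, and miR-490 at chr6:36421800-36421821 on the plus strand, within the gene of the muscarinic receptor Chrm2. miR-720, which was lower as well, is given by name. The third set holds the activity-regulated miR-132 and miR-212, which share a seed and a locus on chromosome 11, and the guide strands of the miR-21 and miR-27 hairpins.
miR-132: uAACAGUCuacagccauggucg
miR-212: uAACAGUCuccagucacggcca
miR-21: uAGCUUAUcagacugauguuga
miR-27a: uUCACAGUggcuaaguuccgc
miR-27b: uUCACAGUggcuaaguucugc
The guide strands miR-27a and miR-27b share a seed, whereas the seeds of their passenger strands differ.

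In the P2rx7-/- hippocampus, miR-21*, miR-685, miR-27a*, miR-210, miR-188-5p and miR-1949 were higher after status epilepticus in every sample, with mean fold changes (FC) between 1.68 and 4.44. miR-720, miR-490 and miR-337-3p were lower in every sample, with mean FC between 0.245 and 0.498. None of these miRNAs passed an adjusted p of 0.05 in limma, a linear model that draws each assay's spread towards a common value. Each FC was taken against the mean of the 3 P2rx7-/- control samples, after the mean Ct of a sample over the 414 assays had been subtracted.

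miR-21* had FC of 0.622, 2.87 and 0.560 in the control samples, and of 3.63, 3.29 and 4.50 in the post-SE samples. The post-SE samples lay close together, and control replicate 2 reached almost to them. The mean FC after status epilepticus was 3.81 ± 0.621 (SD, n = 3), with a log2 difference of 1.92 and a standard error (SE) of 0.67. Without control replicate 2 the log2 difference was 2.68. The miR-21 hairpin is induced in glia and neurons after injury, and its guide strand miR-21 is among the best studied injury miRNAs. The guide strand had FC of 1.32, 1.28 and 0.592 in the controls and of 0.908, 0.727 and 1.08 after status epilepticus, a log2 difference of -0.16 (SE 0.43) that turned positive without control replicate 1 (0.04) or control replicate 2 (0.02).

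miR-685 had FC of 0.487, 1.53 and 1.34 in the controls and of 6.95, 4.19 and 2.19 after status epilepticus. All 3 post-SE samples lay above the controls but they were spread out, and the mean FC was 4.44 ± 2.39 (SD, n = 3). miR-1949 had FC of 1.48, 0.871 and 0.773 in the controls and of 2.14, 2.39 and 3.78 after status epilepticus. Its mean FC was 2.77 ± 0.887 (SD, n = 3), and its mean Ct of 24.9 made it 1 of the least abundant miRNAs analysed.

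miR-27a* comes from the miR-23a, miR-27a and miR-24 cluster. Its FC were 0.821, 1.30 and 0.937 in the controls and 1.69, 1.53 and 2.12 after status epilepticus, with a mean of 1.78 ± 0.308 (SD, n = 3). miR-210, the miRNA most closely tied to hypoxia, had FC of 0.857, 1.22 and 0.955 in the controls and of 1.70, 1.79 and 1.55 after status epilepticus. Its mean FC was 1.68 ± 0.122 (SD, n = 3), and the post-SE samples were among the tightest of any miRNA past an FC of 1.5. miR-188-5p had FC of 1.30, 0.603 and 1.27 in the controls and of 2.68, 1.39 and 3.64 after status epilepticus. Its lowest post-SE sample was only slightly above its highest control, and the mean FC was 2.57 ± 1.13 (SD, n = 3).

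miR-720 was the most regular of the lower miRNAs in its controls, at FC of 1.03, 1.03 and 0.938 against 0.367, 0.322 and 0.724 after status epilepticus. The mean FC was 0.471 ± 0.220 (SD, n = 3) and the log2 difference -1.18 (SE 0.41). miR-720 and miR-1274A were first listed as miRNAs and later matched to transfer RNA, and miR-1274A too was lower in every sample, with a mean FC of 0.667 ± 0.113 (SD, n = 3). miR-490 had FC of 0.988, 2.86 and 0.354 in the controls and of 0.304, 0.162 and 0.268 after status epilepticus. The control samples spread widely, the gap between the groups was narrow, and the log2 difference went from -2.08 to -1.32 without control replicate 2. miR-337-3p, from the Dlk1-Dio3 region, had FC of 0.710, 0.739 and 1.90 in the controls and of 0.453, 0.593 and 0.448 after status epilepticus. Its log2 difference was -1.02, and control replicate 3, far above the other controls, enlarged it.

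miR-721 and miR-770-3p had the largest differences among the miRNAs whose groups did not overlap, and in each a single sample set the size. miR-721 had FC of 0.895, 1.83 and 0.610 in the controls and of 0.588, 0.00268 and 0.192 after status epilepticus. Without post-SE replicate 2 its log2 difference went from -3.90 to -1.57. miR-130b and miR-301, chosen for the shared seed after their values had been seen, had log2 differences of -1.11 (SE 0.52) and -0.73 (SE 0.44), and their groups overlapped. miR-770-3p had FC of 0.409, 1.24 and 1.98 in the controls and of 189, 3.87 and 3.24 after status epilepticus. Without post-SE replicate 1 its log2 difference went from 3.74 to 1.82. The other strand of the same hairpin, miR-770-5p, had FC of 0.673, 0.387 and 0.285 after status epilepticus.

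**Figure D1:**
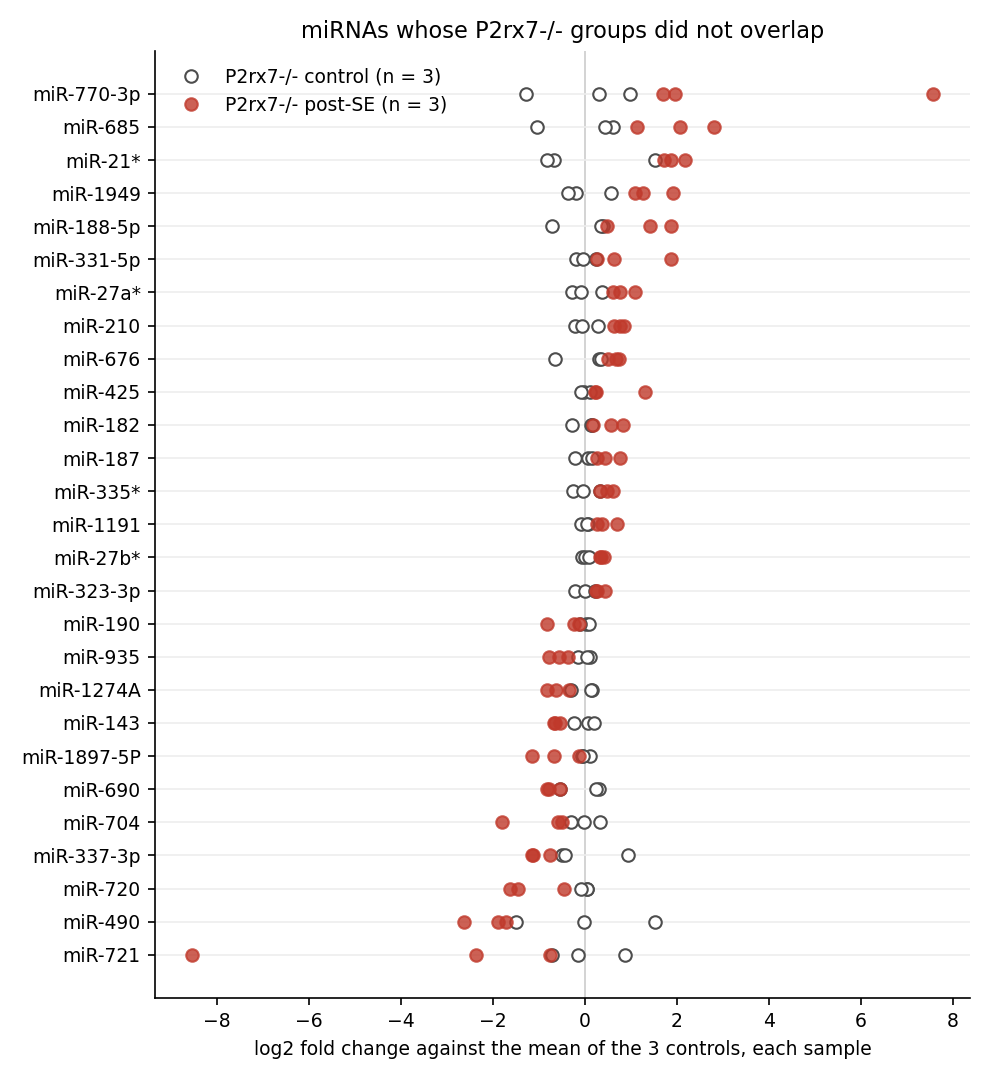
Each row is 1 of the 27 miRNAs whose P2rx7-/- groups did not overlap, and each point is a sample, as its log2 fold change against the mean of the 3 controls (open, control, n = 3; filled, post-SE, n = 3). For most rows the gap between the groups is small, and miR-770-3p and miR-721 each have a single post-SE sample far from the other 2.

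Over all 414 assays, 27 had post-SE samples that did not overlap the controls (6.52%), 16 of them higher (3.86%) and 11 lower (2.66%). Under 5 other normalizers, 14 to 20 of the 27 still had separate groups, and with the sample median the balance turned to 11 higher and 15 lower. For each of these 27 the two-sided exact permutation test gave p = 0.1, the smallest that 3 against 3 samples allow. With no difference between the groups and no link between samples, a share of 0.1 of the assays would separate so on average, against the 6.52% seen. The share to expect if samples of the same replicate number are linked was not worked out. limma called 0 assays (0%) at an adjusted p below 0.05, the lowest adjusted p being 0.946. At an unadjusted p below 0.05 it listed 7 assays, 4 of them higher (miR-1949, miR-685, miR-21* and miR-188-5p) and 3 lower (miR-720, miR-490 and miR-1896). The methods' two-group test listed 10 at the unadjusted threshold and 0 after adjustment. miR-1896 was the only 1 of the 7 whose groups overlapped, with FC of 0.401, 0.886 and 2.81 in the controls and of 0.421, 0.264 and 0.0737 after status epilepticus. The remaining miRNAs with the lowest limma p were miR-210, miR-27a* and miR-770-3p.

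The fold change thresholds of the study's methods were applied here to the arithmetic mean of the 3 post-SE FC, which does not weigh the spread. The reference was the P2rx7-/- control group over 414 assays, whereas the methods refer to wt groups and to miRNAs detected in every sample of the series. The rule called 84 miRNAs up (above 1.5; 20.3%) and 31 down (below 0.6; 7.49%). Down calls were 48 without control replicate 2 and 55 without post-SE replicate 2. They were 52 of 494 assays with a Ct in 2 of 3 samples of each group. Of the 84, 14 passed 1.5 in all 3 post-SE samples, 29 in 2 samples and 41 in 1 sample, and 10 had groups that did not overlap. Leaving out the highest post-SE sample of a miRNA can only lower its mean, and 57 of the 84 (67.9%) then no longer passed. Of the 31, 16 were below 0.6 in all 3 post-SE samples, and 5 no longer passed without the most extreme sample. High values pull an arithmetic mean more than low ones, so the 57 and the 5 cannot be compared. Measured in the same way, the control samples' own mean FC was above 1.5 for 33 of the 414 assays (7.97%), 15 of them among the 84 called up. With the geometric mean in place of the arithmetic mean, the rule called 61 up and 45 down. When the methods' two-group test was added as a condition, 4 up and 1 down were left.

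The spread between samples was as large as most differences. The median SD was 0.52 log2 units among the controls and 0.50 among the post-SE samples, and the median absolute difference between the groups was 0.37. The largest differences came from single wells. miR-873 had an FC of 10275 in post-SE replicate 1 and of 1.73 and 0.844 in the other 2 post-SE samples. miR-489, miR-1954 and miR-197 had FC of 400, 176 and 105 in control replicate 1 and of at most 0.418 in the other 5 samples. These 4 miRNAs were named after their values had been seen. miR-504, also named so, had FC of 0.623, 24.5 and 39.5 after status epilepticus, and it became the only miRNA called by limma (log2 difference 4.96, adjusted p = 0.0206) when post-SE replicate 1 was left out.

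**Figure D2:**
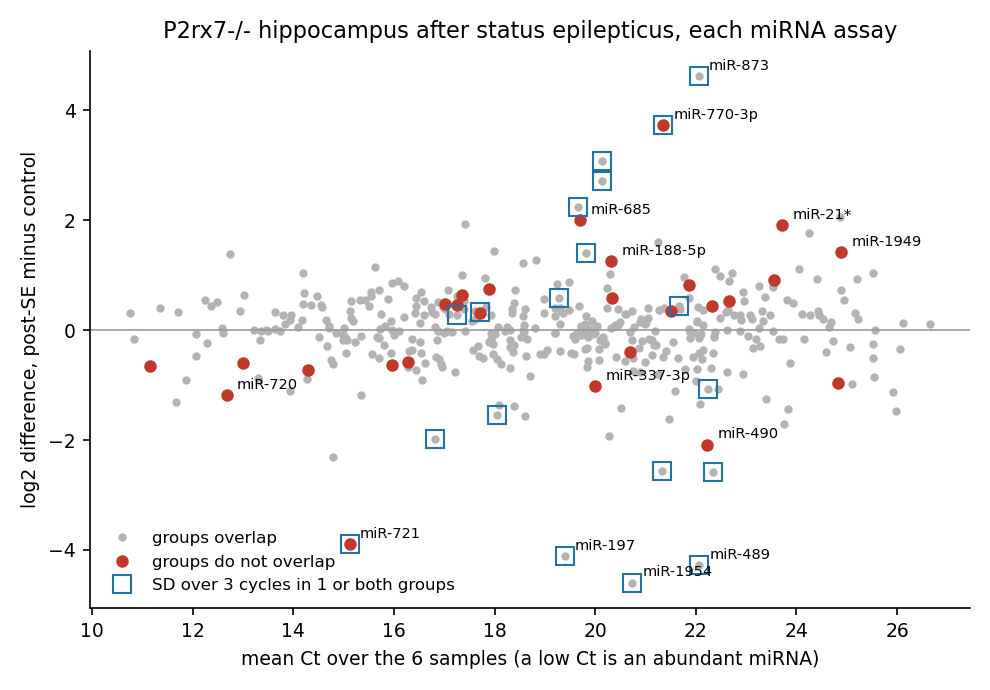
Each point is a miRNA assay (414), with its mean Ct over the 6 P2rx7-/- samples on the x axis in cycles and its log2 difference, post-SE minus control, on the y axis (red, groups do not overlap; square, an SD over 3 cycles in 1 or both groups, 19 assays). Most of the differences beyond 2 log2 units in either direction carry a square, and miR-490 is among the exceptions.

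Post-SE replicate 1 stood apart in the control assays. The plant miRNA ath-miR159a, which mouse tissue does not contain and which serves as a negative control, had a Ct of 13.5 in that sample, and no Ct in the other 5 P2rx7-/- samples. The mean Ct of post-SE replicate 1 over the 414 assays was 18.5, against 19.0 to 19.3 in the other 5. The small nucleolar RNA assays, which are run in many wells as reference RNAs, gave FC after status epilepticus of 1.01, 0.798 and 1.21 for snoRNA135 and of 0.720, 1.06 and 1.04 for snoRNA202, and the groups overlapped for both (exact permutation p = 0.9 and p = 0.5). Control replicate 1 also stood apart, with 40 of 414 assays lying over 2 cycles away from the median of the remaining samples, against 32 in post-SE replicate 1 and 11 to 26 in the other 4. Each control sample gave a Ct in 488 to 538 miRNA assays, and each post-SE sample in 507 to 518. Across assays, the mean Spearman correlation of Ct was 0.912 over the 6 sample pairs of the same group and 0.917 over the 9 pairs of different groups, so the samples did not divide by treatment.

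The seizure-linked miRNAs were 18 chosen for a known response to seizures or a role in them, with results of these data already known. They were the only group whose medians by sample did not overlap. Their median log2 FC was -0.11, -0.10 and -0.08 in the controls and 0.17, 0.13 and 0.42 after status epilepticus. By replicate number, the P2X7-targeting median was higher in each post-SE sample (0.21, 0.35 and 0.61) than in its control (-0.13, 0.30 and 0.10). The neuron-enriched median was lower in each (-0.324, -0.129 and -0.009, controls -0.316, 0.191 and 0.190). The red blood cell median was lower as well (-0.62, -1.10 and -0.31, controls -0.55, -0.11 and 0.67). These orders were not tested. Of the 16 seizure-linked miRNAs with a Ct in all 6 samples, 11 had a log2 difference above 0, 6 were called up by fold change (37.5%, against 20.3% of all assays) and 0 down, and 3 had groups that did not overlap (miR-21*, miR-27a* and miR-210; 18.8%, against 6.52%). Their median log2 difference was 0.29, against 0.02 over all 414 assays, of which 213 were above 0, and it went to 0.12 without post-SE replicate 3. The 6 called up include miR-155, whose controls had a mean FC of 4.65 on the same measure, above its 1.63 after status epilepticus. In wt mice, over 13 members, the median log2 FC was 0.04, -0.08 and 0.21 in the controls and 0.30, 0.48 and 0.57 after status epilepticus, apart as well, with a median log2 difference of 0.51. The red blood cell medians were apart there too, at 1.26, -0.16 and -1.10 in the controls and -1.43, -1.28 and -1.24 after status epilepticus. So were those of the miR-17 cluster and its paralogs, at 0.09, 0.06 and -0.08 against -0.74, -0.42 and -0.15. No seizure-linked member passed limma. Because the seizure-linked list was drawn up with results of these data known, its separation and shares are description only, and its shift was not tested.

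Among its members, miR-146a, which is induced through NF-kB and dampens inflammatory signaling, had FC of 1.96, 0.902 and 2.12 after status epilepticus against 0.869, 0.846 and 1.36 in the controls. miR-212, from the activity-regulated miR-132 and miR-212 locus, had FC of 1.13, 1.11 and 2.46 against 0.889, 0.765 and 1.47. In both, post-SE replicate 3 was the highest sample and the groups overlapped, while each post-SE sample lay above the control of the same number. That held for 50 of the 414 assays (12.1%), and the reverse for 46 (11.1%), counts that were added after the data had been seen. miR-132 itself had a Ct in only 4 of the 6 samples, between 10.6 and 10.8, close to the lowest Ct listed for these samples (10.1), and was not analysed. miR-134, which limits dendritic spine size, had a log2 difference of 0.36 (SE 0.39), with post-SE replicate 3 alone (1.88) above the controls.

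miR-155, an inflammatory miRNA of immune cells, had FC of 0.177, 0.424 and 13.3 in the controls and of 0.762, 0.685 and 3.44 after status epilepticus. The direction of its difference depended on which sample was left out, with log2 differences of -0.97 without control replicate 1, 2.15 without control replicate 3 and -0.47 without post-SE replicate 3. miR-203 had a log2 difference of 0.42 (SE 0.34), miR-135a of 0.29 (SE 0.64), miR-22 of 0.08 (SE 0.30) and miR-181a of 0.02 (SE 0.61). Groups overlapped in these miRNAs. miR-129 (-0.68), miR-34a (-0.49), miR-18a (-0.30) and miR-184 (-0.17) had log2 differences below 0 with groups that overlapped. Of these, miR-135a and miR-181a turned negative, and miR-34a, miR-18a and miR-184 positive, without 1 of the control samples, and miR-129 went to -0.02 without control replicate 1.

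The 4 miRNAs reported to target the P2X7 transcript, which lacks exon 2 in these mice, were all above 0 (against 51.4% of all assays). Without control replicate 3, miR-135a went from 0.29 to -0.41 and 3 of the 4 were above 0. miR-22 had FC of 0.908, 1.11 and 1.17 after status epilepticus against 0.964, 1.00 and 1.03 in the controls, and was among the steadiest miRNAs across the 6 samples. miR-187 had FC of 1.20, 1.34 and 1.70 against 0.866, 1.05 and 1.10, and its groups did not overlap. miR-150, which is made by lymphocytes, had FC of 3.70, 1.87 and 2.56 against 0.311, 1.45 and 2.22. Without control replicate 1 its log2 difference went from 1.38 to 0.54. The 4 log2 differences had a median of 0.39, which lay between 0.28 and 0.64 when any sample was left out, and 1 of the 4 was called up by fold change (25%, near the 20.3% of all assays).

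Among groups of miRNAs that mark cell types, the neuron-enriched miRNAs included abundant members, such as miR-218 at a mean Ct of 10.8 and miR-9* at 12.1. The median log2 difference of this group was -0.05 over 6 of 9 members, and -0.24 without control replicate 1. miR-9* had FC of 1.24, 0.791 and 1.02 in the controls and of 0.465, 0.826 and 0.978 after status epilepticus. The microglia and leukocyte miRNAs, 9 assays led by miR-150, had a median of 0.28, with 4 called up (44.4%, against 20.3% of all assays) and 0 with separate groups (against 6.52%). miR-155, whose control mean was the higher, is among these 4 too. Their median log2 FC was 1.08 in post-SE replicate 3 but 0.23 and -0.24 in the other 2 post-SE samples, against -0.32, 0.14 and 0.32 in the controls. The median difference went to 0.01 without post-SE replicate 3 and to 0.70 without post-SE replicate 2. In these bulk samples, more cells of a type and more RNA per cell cannot be told apart.

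The choroid plexus and ependyma miRNAs, which include the miR-34b, miR-34c and miR-449 family of cells with motile cilia, were the marker group with the highest median (0.76), with 8 of 8 assays above 0 (against 51.4% of all assays) and 5 called up (62.5%, against 20.3%). By sample, the median log2 FC was -1.07 in control replicate 1, 0.50 and 0.58 in the other controls, and 0.17, 0.38 and 0.91 after status epilepticus, so the median rested on control replicate 1 and went to 0.15 without it, with 5 of 8 above 0. miR-34c had FC of 0.763, 3.47 and 0.378 in the controls and of 2.46, 3.06 and 1.70 after status epilepticus. Its log2 difference went from 1.23 to 2.12 without control replicate 2, the highest control, and was smaller without control replicate 3, the lowest. miR-449b had FC of 0.925, 1.46 and 0.740 in the controls and of 1.15, 2.38 and 3.22 after status epilepticus. The most abundant member with a Ct in all 6 samples was miR-34b-3p, at a mean Ct of 13.9. Of the other listed members, miR-204 had no Ct in post-SE replicate 1 and was not analysed, and miR-211 had no assay. Apart from miR-204*, the 8 assays measure the miR-34b, miR-34c and miR-449 family, several of them the same hairpin. In wt mice 7 of the assays had a Ct in all samples, with a median log2 FC of 0.15, -0.28 and -0.03 in the controls and of -2.02, -1.22 and 0.35 after status epilepticus. The median log2 difference of -1.08 there came from post-SE replicates 1 and 2, and post-SE replicate 3 lay above the controls.

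The red blood cell miRNAs miR-451 and miR-486 had log2 differences of -0.43 and -0.91, and their median went from -0.67 to -0.34 without control replicate 3. Without post-SE replicate 2 miR-451 was above 0. miR-486 was at FC of 0.233, 0.558 and 1.15 after status epilepticus, so its difference was smaller without post-SE replicate 1 and larger without post-SE replicate 3. The oligodendrocyte miRNAs had a median of 0.49 over 5 assays, which went to -0.13 without post-SE replicate 1. Of these, miR-338 had an FC of 7.11 in control replicate 1 and of 0.364 and 0.386 in the other controls, and its log2 difference went from -1.38 to 0.03 without control replicate 1. The endothelial and mural miRNAs had a median of -0.02 over 5 assays, which lay between -0.29 and 0.19 when any sample was left out, and miR-143, a miRNA of smooth muscle and pericytes, was lower in every post-SE sample by 1 of its 2 assays (mean FC 0.649 ± 0.0322, SD, n = 3). The epithelial and sensory miRNAs had a median of 0.31 over 9 assays, which turned negative without control replicate 1 (-0.10), post-SE replicate 1 (-0.02) or post-SE replicate 3 (-0.13). miR-182 had FC of 1.49, 1.13 and 1.76 after status epilepticus and did not overlap its controls, whereas miR-429 (mean FC 1.78 ± 0.838) and miR-200a* (mean FC 0.530 ± 0.190; both SD, n = 3) overlapped theirs. The muscle miRNAs had a median of -0.75 over 3 assays, with miR-1 at FC of 0.0410, 2.19 and 0.693 and miR-133a at 1.18, 1.40 and 2.07 after status epilepticus. The median turned to 0.30 without post-SE replicate 1. The part of any cell type in the miRNA differences was not tested.

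Among genomic clusters, the Dlk1-Dio3 region had 70 assays with a median log2 difference of -0.01, with 10 called up (14.3%, against 20.3% of all assays), 2 down (2.86%, against 7.49%), and 3 with separate groups (miR-770-3p and miR-323-3p higher, miR-337-3p lower; 4.29%, against 6.52%). The members spread in both directions. The let-7 family had a median of 0.10 over 8 assays, from -1.18 to 1.40 (miR-98), and it turned negative without control replicate 3 (-0.20) or post-SE replicate 1 (-0.19). let-7b had a log2 difference of -0.54 (SE 0.43). miR-98 turned from 1.40 to -0.37 without control replicate 3, where its FC was 0.0855. The miR-17 cluster and its paralogs had a median of -0.02 over 11 assays, which lay between -0.31 and 0.16 when any sample was left out, with miR-20b at 0.84 (SE 0.60). The Sfmbt2 cluster had a median of -0.42 over 14 assays, which lay between -0.32 and -0.11 when any sample was left out, with miR-467d at 1.11 (SE 0.67) and miR-467* at 1.28 (SE 1.17), and in both post-SE replicate 2 was the highest sample by far.

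**Figure D3:**
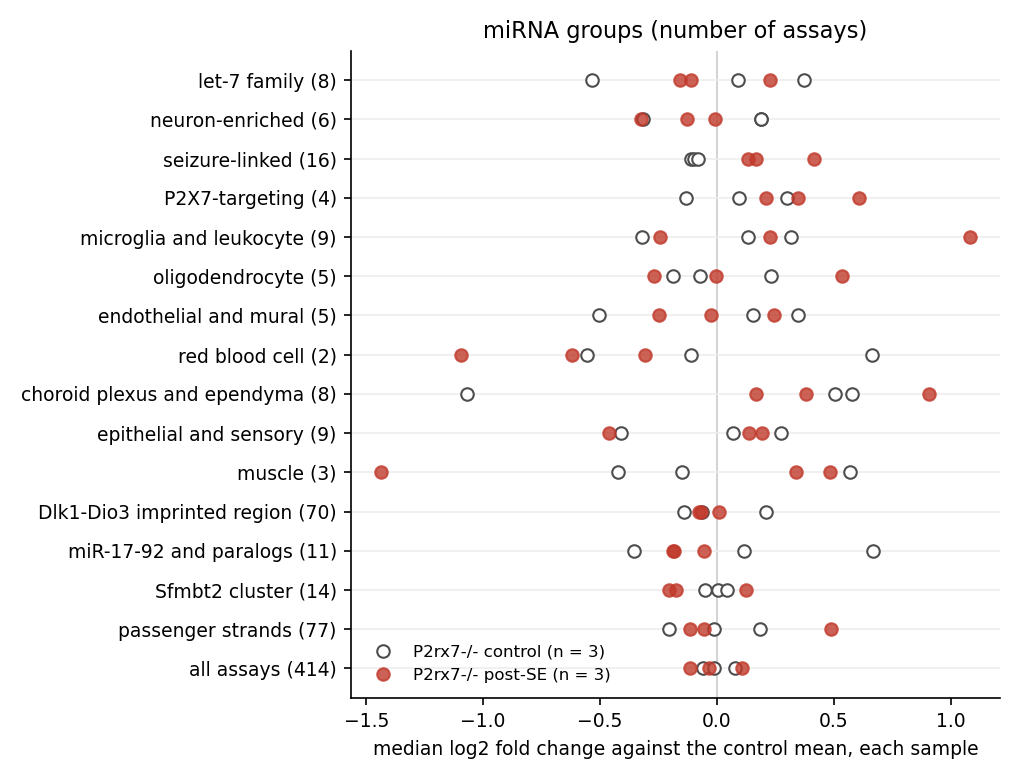
Each row is a group of miRNAs with its number of assays, and each point is the median over the group of the log2 fold change of a P2rx7-/- sample against the control mean (open, control, n = 3; filled, post-SE, n = 3). The samples separate in the seizure-linked row, from -0.08 at most in the controls to 0.13 at least after status epilepticus, and overlap in the other rows. The seizure-linked list was drawn up with results of these data known.

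Of 77 passenger strands analysed, 4 were higher without overlap (miR-21*, miR-27a*, miR-335* and miR-27b*; 5.19%) and 0 lower, and 17 were called up (22.1%) and 2 down (2.60%) by fold change. The shares of higher and up calls lie near those of all 414 assays (3.86% and 20.3%), and those of lower and down calls lie below them (2.66% and 7.49%), which was not tested. Their median log2 difference was 0.19, with 49 of 77 above 0, but it went to -0.04 without post-SE replicate 3, where the passenger strands had their highest median (0.49). In 53 pairs of a passenger strand with the guide of the same hairpin, the passenger strand was less abundant in 44 and had the more positive difference in 24. The signs were the same in 28 of the 53, and the Spearman correlation across pairs was 0.13, over assays that share samples.

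Of the guides of these 4 passenger strands, only miR-27a had a difference above 0. miR-27b had FC of 0.650, 0.796 and 0.646 after status epilepticus against 0.742, 0.861 and 1.56 in the controls, whereas miR-27b* was at 1.27, 1.25 and 1.33 against 0.950, 0.995 and 1.06. miR-335 had a log2 difference of -0.60 (SE 0.43) and miR-335* of 0.47 (SE 0.32), whose lowest post-SE sample was level with its highest control (both 1.25). miR-27a had FC of 9.47, 1.84 and 1.14 after status epilepticus and of 0.242, 2.49 and 1.66 in the controls, so its groups overlapped although its mean was above that of its passenger strand. The largest disagreement was in the miR-503 hairpin, at -2.57 for the guide and 0.39 for miR-503*, and it came from a guide FC of 18.3 in control replicate 1. None of these strand differences was tested against the error of a single assay, but 24 pairs of assays that carry the same miRNA name give its size. Their log2 differences were 0.56 apart at the median and had the same sign in 13 of 24. miR-409-5p disagreed the most, at 2.71 by an assay with an FC of 82.8 in post-SE replicate 1 and at -0.52 by the other.

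**Figure D4:**
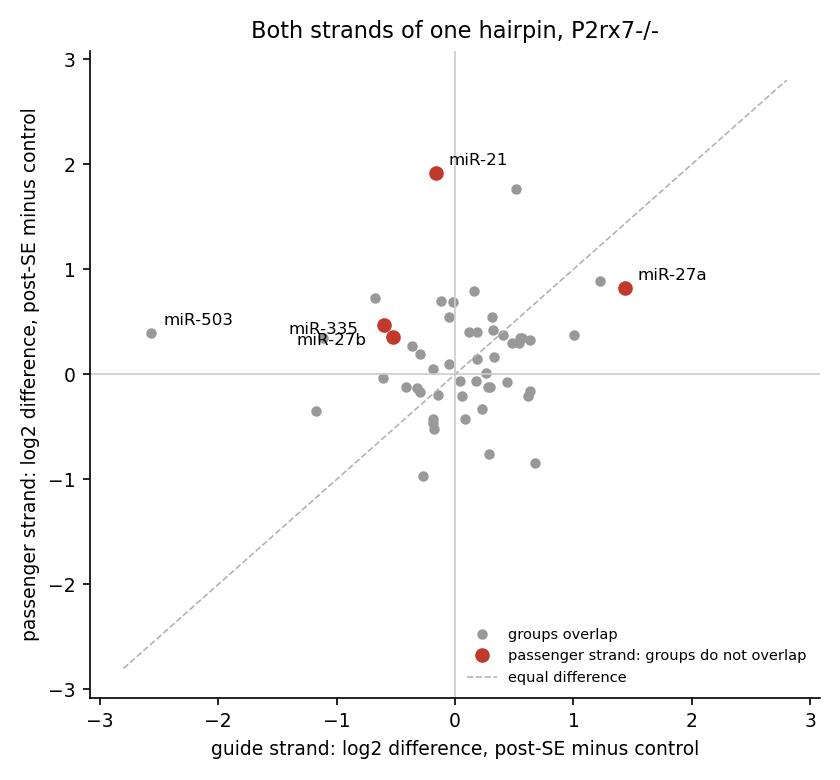
Each point is a pair of assays for the strands of a hairpin in the 6 P2rx7-/- samples, with the log2 difference (post-SE minus control) of the guide on the x axis and of the passenger strand on the y axis (53 pairs from 49 hairpins; red, passenger strands whose groups did not overlap; dashed, equal differences). miR-21, miR-335 and miR-27b lie above 0 for the passenger strand and below 0 for the guide.

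The wt mice, which share no sample with the knockout comparison, were analysed in the same way over 371 assays with a Ct in all 6 wt samples. There, 39 assays did not overlap (10.5%), near the share of 0.1 that would separate with no difference between the groups and no link between samples. In these mice limma called 0, with a lowest adjusted p of 0.333 (miR-21*) and 8 assays at an unadjusted p below 0.05. Across the 335 assays with a Ct in all 12 samples, the log2 differences of the genotypes had the same sign in 169 (50.4%), with a Spearman correlation of 0.02 across assays, which are not independent replicates. wt control replicate 1 stood apart, with 87 of the 371 assays lying over 2 cycles away from the median of the remaining wt samples, against 12 to 35 in the other 5. Without it the same sign was seen in 172 of the 335, and without any other of the 12 samples in 154 to 188, counts that were added after the data had been seen. Of 13 miRNAs higher without overlap in P2rx7-/- mice and measured in all wt samples, 6 were above 0 and 4 higher without overlap in wt mice as well, and 2 were lower without overlap. Of 9 that were lower in P2rx7-/- mice, 7 were below 0 and 1 was lower without overlap in wt mice.

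The 4 shared miRNAs were miR-21*, miR-685, miR-27a* and miR-335*. miR-21* had FC of 4.30, 5.86 and 5.71 in post-SE wt mice, with a mean of 5.29 ± 0.861 (SD, n = 3) beside 3.81 ± 0.621 in P2rx7-/- mice. miR-685 had FC of 7.47, 7.22 and 7.56 in post-SE wt mice, which were closer together than the 6.95, 4.19 and 2.19 of the P2rx7-/- mice. miR-27a* was at 1.94 ± 0.415 (SD, n = 3) in wt mice and miR-335* at 1.91 ± 0.152 (SD, n = 3), beside 1.78 and 1.39 in P2rx7-/- mice. The interaction, the P2rx7-/- difference minus the wt difference, was -0.44 (SE 0.81) for miR-21*, -0.86 (SE 0.90) for miR-685, -0.08 (SE 0.48) for miR-27a* and -0.43 (SE 0.36) for miR-335*, and limma gave adjusted p = 0.851 or above for each. miR-1274A was the miRNA that was lower without overlap in both, at 0.630 ± 0.258 (SD, n = 3) in wt mice.

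No miRNA differed between the genotypes in its response after adjustment. limma called 0 of 335 interactions (0%), with a lowest adjusted p of 0.851, and listed 8 at an unadjusted p below 0.05. The lowest p belonged to miR-701, with post-SE FC of 1.32, 2.39 and 2.23 in P2rx7-/- mice and of 0.414, 0.670 and 0.449 in wt mice, an interaction of 1.97 (SE 0.60). miR-1191 (interaction 1.13, SE 0.37) and miR-30d* (1.32, SE 0.46) followed, and both were likewise above 0 in P2rx7-/- mice and below 0 in wt mice. miR-1949, a leading miRNA in the knockout, was at 0.246, 1.21 and 1.10 in post-SE wt mice against 2.14, 2.39 and 3.78 in P2rx7-/- mice, an interaction of 1.99 (SE 0.95, adjusted p = 0.851 in limma). miR-490 had an interaction of -2.13 (SE 1.03) and the same adjusted p. miR-210 and miR-188-5p were not measured in every wt sample.

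**Figure D5:**
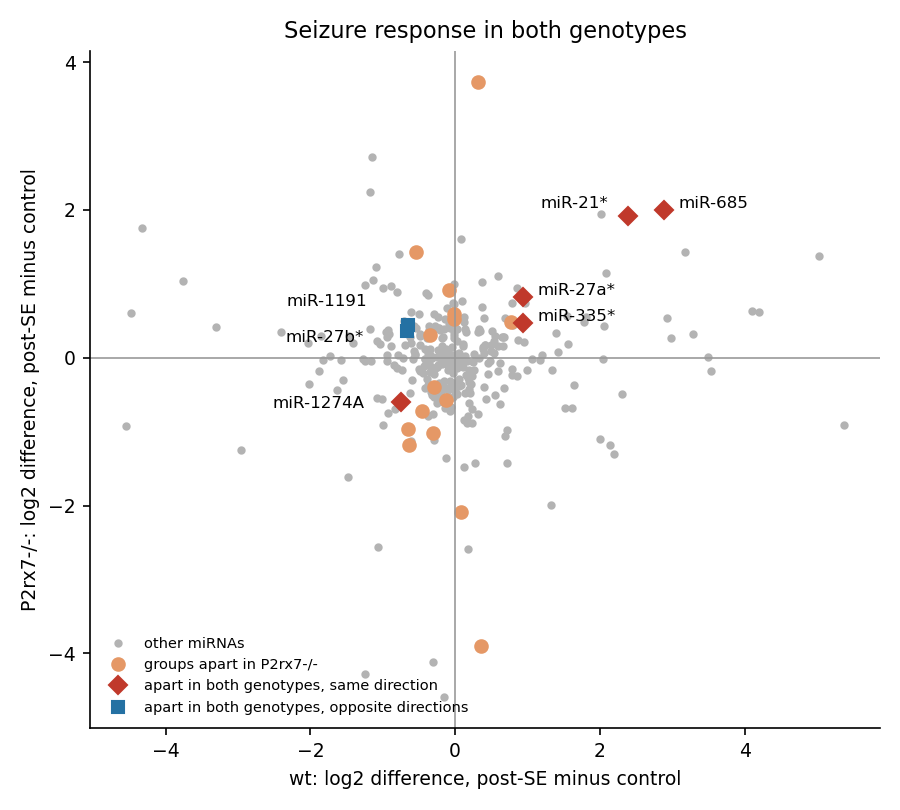
Each point is a miRNA with a Ct in all 12 samples (335), with the log2 difference, post-SE minus control, in wt mice on the x axis and in P2rx7-/- mice on the y axis (3 samples per group; colours mark miRNAs whose groups did not overlap in P2rx7-/- mice, and in both genotypes). miR-21* and miR-685 lie together at the upper right, while the other points show no common slope.

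Detection itself differed little between the groups. Of the 619 assays, 35 had no Ct in any P2rx7-/- sample and 170 had a Ct in 1 to 5 of them. Among the 170, a Ct in all 3 post-SE samples and in no control was seen for 2 assays, a second assay of miR-489 (Ct of 21.0, 20.8 and 22.2) and the rare miR-1938, and the reverse for 0. The first assay of miR-489 gave a Ct in all 6 samples, with its abundance set by control replicate 1 as given above. Gaps were not only among rare miRNAs. A median Ct below 14 was found for 26 of the 170, although for some, such as miR-222 and miR-741, it was the Ct of 1 sample only. The neuronal miR-9 and miR-138 and the widely expressed miR-24 and miR-29a, named after their values had been seen, were among the 26, with Ct near the lower end of the listed values where present. Within the 414 analysed assays, the 104 least abundant (mean Ct from 21.9 to 26.6) had the widest spread, with a median SD of 0.66 in the controls, against 0.48 in the 104 most abundant. The non-overlapping miRNAs were spread over all 4 levels of abundance, with 7, 5, 8 and 7 from the most to the least abundant.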

How the data were processed

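miRNA was measured by TaqMan OpenArray PCR after reverse transcription and pre-amplification. The authors deposited raw Ct values, which lie on an inverted log2 scale, per assay and sample, with values from 10.0 to 28.0 listed, and 0 columns were left without a sample. Read depth does not apply, and RNA degradation was not assessed. A further deposited table of the authors' fold changes was not used. Here, miRNA assays (not snoRNA, not plant) with a Ct in all 6 P2rx7-/- samples were kept, the mean Ct over them was subtracted from each sample and the sign was turned. limma 3.58.1 (lmFit and eBayes, R 4.3.3) tested post-SE against control, with Benjamini-Hochberg adjustment over all 414 assays and a threshold of 0.05. The interaction used all 12 samples. The methods' thresholds (FC above 1.5 or below 0.6) were applied to the arithmetic mean FC against P2rx7-/- controls; the methods name no kind of mean and use wt references. Exact permutation tests were two-sided (scipy 1.17.1). Scripts were tested on simulated data.

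Samples of the same replicate number in the P2rx7-/- groups deviated weakly together from their group means (Pearson 0.15, 0.14 and 0.26 across assays). The 6 pairs of unlike number gave -0.16 to -0.03. Deviations from a group mean cancel out within the group, so positive values for like numbers tend to make the others negative. The pairs of unlike number are therefore no separate evidence of a link. The numbers were taken to pair the samples, although the labels do not say what they share. Whether the samples are paired was not tested.

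The text names the 10 miRNAs with the lowest limma p, the 5 highest and 5 lowest among non-overlapping miRNAs, the member with the lowest p and that with the largest difference of each list, all seizure-linked and P2X7-targeting members, the control assays, the largest disagreements and the 3 lowest interaction p. Others, such as the most abundant members of lists, were chosen after their values were seen. Members and lists were chosen with earlier results of these data known. Of 37 assays looked up by mature name, 34 matched the RefSeq table. Alternatives covered the normalizer, Ct filters, the averaging of FC, the model, the replicate block and leaving out each sample.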

Additional observations from a re-analysis of the deposited data

Results flagged for a closer look

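miR-27b* and miR-1191 moved in opposite directions in the genotypes, with every post-SE sample above every control in P2rx7-/- mice and below every control in wt mice. miR-27b* had post-SE FC of 1.27, 1.25 and 1.33 in P2rx7-/- mice and of 0.773, 0.431 and 0.746 in wt mice, an interaction of 1.06 log2 units (SE 0.40). miR-1191 had post-SE FC of 1.19, 1.62 and 1.30 in P2rx7-/- mice and of 0.688, 0.537 and 0.694 in wt mice, an interaction of 1.13 (SE 0.37). Both interactions had an adjusted p of 0.851 in limma, so neither passed the threshold over the 335 assays.

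The plant miRNA ath-miR159a gave a signal outside the measured miRNAs in 2 of the 12 samples, with a Ct of 13.5 in P2rx7-/- post-SE replicate 1 and of 23.9 in wt control replicate 1. Each sample has 2 wells of this assay, and 1 of them gave a Ct in each case. Among the 84 miRNAs called up by fold change in P2rx7-/- mice, post-SE replicate 1 was the highest post-SE sample in 33, replicate 2 in 25 and replicate 3 in 26. The part of this sample in the results is given by the values without it.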

How the results depend on the processing

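The limma count was 0 under each of 5 normalizers, 4 Ct filters, the fit of all 12 samples, the replicate block (0, lowest adjusted p = 0.852), eBayes with trend and robust and the methods' two-group test, with lowest adjusted p from 0.380 to 0.998. Leaving out single samples gave 0 to 1, the 1 being miR-504 without post-SE replicate 1. The interaction count was 0 in all its alternatives, and the replicate block changed no call. The count of non-overlapping miRNAs was 45 with a Ct in 2 of 3 samples of each group (494 assays), and 56 to 85 when a sample was left out, because fewer samples have to be apart. Up calls were 76 to 99 and down calls 29 to 55 without single samples, with 48 down without control replicate 2 and 55 without post-SE replicate 2. Under the 5 normalizers up calls were 78 to 112, the fewest with the sample median and the most with snoRNA202. Up calls were 105 and down calls 52 with the filter of 2 of 3 samples. With a Ct in all 12 samples, 60 of 335 assays were called up. With the methods' two-group test added, 4 up and 1 down were called. The balance of the non-overlapping miRNAs depended on the normalizer. It was 16 higher and 11 lower with the mean, 11 and 15 with the sample median, 18 and 7 with a mean over every miRNA that the sample detected, and 22 and 10 with snoRNA202, which shared 15 of its 32 with the 27 and moved the median of all assays to 0.15. Of 639 values of 50 named miRNAs under alternatives, 624 moved by less than their SE and 17 had the opposite sign. None of the 17 was of a non-overlapping miRNA, whose sign cannot change when a sample is left out. The replicate block leaves every log2 difference as it was, and each normalizer but the quantile shifts all assays by the same amount. Part of the 624 was therefore fixed in advance and does not measure robustness. The count of assays with the same direction in both genotypes was 169 of 335, and 154 to 188 without single samples, an alternative chosen after seeing the data. Signal over background is unknown, and whether the lower end of the listed Ct range limits abundant miRNAs was not tested.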
